A study of Mus musculus with 16 samples.

Results

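Cultured ovarian follicles hold 1 oocyte each among many somatic cells, and these arrays differed in how much oocyte message they carried. To follow that difference, each array was given an oocyte score, the mean log2 signal of Gdf9, Bmp15, Zp1, Zp2 and Zp3. Inside each of the 4 treatment-by-time groups the 2 arrays with the highest score were called oocyte-rich and the 2 with the lowest oocyte-poor. This put 8 arrays on each side, so all 16 arrays of the series were used. The sides were chosen by the measured values of these 5 genes, whose levels are given below as a description with no test.

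The samples were preantral to small antral follicles of C57BL/6Tac mice, labelled as 8 weeks of age (6 to 8 weeks in the series text), with the follicles of 8 animals pooled for each experiment. Each array measured 6 to 9 follicles, cultured in single drops with 80 IU/L FSH and 10 IU/L LH, which all 4 groups shared. The groups were control (0 ng/ml) and recombinant AMH (50 ng/ml), each at 12 and 24 h, with 4 arrays per group, and a control and an AMH array of the same time and number shared a pool of follicles. No strain, genotype or allele differed between groups, and nothing in the labels separates oocytes from somatic cells. A higher oocyte level on an array can come from more oocytes, more RNA per oocyte or less RNA from the cells around it, and these cannot be told apart in such samples.

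The growing oocyte makes an egg coat, the zona pellucida, from the ZP glycoproteins, and secretes GDF9 and BMP15, TGF-β family ligands that act on the granulosa cells around it. It also stores maternal messages and proteins that the early embryo uses before its own genome is switched on. Among these are a protein complex under the oocyte's membrane (the subcortical maternal complex), proteins that hold messages silent until meiosis resumes, and transcription factors such as NOBOX and FIGLA. Granulosa cells in turn supply the oocyte with pyruvate from glycolysis and with amino acids and sterols, and oocyte factors are known to promote glycolysis in the cumulus cells next to it.

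The starts of 4 oocyte genes are shown because their transcripts stood at the centre of what follows. Zp3 and Bmp15 helped choose the sides, and Nlrp5 and Zar1 were tested. Each line gives the 250 bases before the start of the gene, read on the gene's strand from RefSeq (GRCm38.p6), with CANNTG in capitals, the E-box bound by helix-loop-helix factors such as FIGLA. Nlrp5 has 2 start sites in the table, and the more upstream one is shown.
Zp3, chr5:135979855-135980104, plus strand: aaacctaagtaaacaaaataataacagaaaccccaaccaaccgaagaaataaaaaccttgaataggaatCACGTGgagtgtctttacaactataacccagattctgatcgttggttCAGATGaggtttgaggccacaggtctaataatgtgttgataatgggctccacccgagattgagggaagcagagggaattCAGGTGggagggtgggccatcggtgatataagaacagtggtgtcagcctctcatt
Bmp15, chrX:6320725-6320974, minus strand: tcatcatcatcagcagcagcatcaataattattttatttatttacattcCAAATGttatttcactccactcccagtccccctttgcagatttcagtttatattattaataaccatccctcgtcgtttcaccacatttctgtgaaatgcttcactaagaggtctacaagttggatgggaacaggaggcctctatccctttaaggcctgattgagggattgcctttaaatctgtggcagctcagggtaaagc
Nlrp5, chr7:23385639-23385888, plus strand: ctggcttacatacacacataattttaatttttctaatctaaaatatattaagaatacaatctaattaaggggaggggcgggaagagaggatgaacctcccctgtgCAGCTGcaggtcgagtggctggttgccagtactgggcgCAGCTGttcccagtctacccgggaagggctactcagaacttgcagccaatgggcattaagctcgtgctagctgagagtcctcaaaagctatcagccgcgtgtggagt
Zar1, chr5:72581085-72581334, minus strand: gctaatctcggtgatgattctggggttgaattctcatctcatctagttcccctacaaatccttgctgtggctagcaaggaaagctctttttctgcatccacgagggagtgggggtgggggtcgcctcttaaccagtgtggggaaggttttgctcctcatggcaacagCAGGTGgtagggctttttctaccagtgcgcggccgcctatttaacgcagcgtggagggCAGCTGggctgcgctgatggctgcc

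In the Zp3 window the E-boxes began 181, 134 and 55 bases before the start, and the first of them was CACGTG. Bmp15 held 1, Nlrp5 2 and Zar1 2 such motifs, those of Zar1 beginning 83 and 25 bases before the start. Either strand gives the same matches for CANNTG, and CACGTG is a case of it. Promoters were found for 73 of the 86 oocyte genes tested below, with 97 windows, and 75.3% of these windows held CANNTG, 8.25% CACGTG and 7.22% TAATTG or its reverse complement, a core bound by homeobox factors such as NOBOX. Over the 12605 windows of all genes tested the shares were 57.7%, 8.23% and 4.34%, and over all 32851 promoters listed 66.2%, 6.02% and 7.17%. A match describes the letters in the window and is no evidence of binding.

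Signals are given below as log2(signal + 1.46), a scale that understates differences of dim genes. On this scale Zp3 lay at 8.89, 9.98 and 10.76 (lowest, median and highest of the 8 rich arrays) against 8.53, 8.89 and 9.60 on the poor arrays. Zp2 ranged from 7.95 to 10.14 on the rich and from 7.48 to 8.89 on the poor arrays, and Zp1 from 7.02 to 9.40 and from 6.31 to 7.65. Gdf9 ranged from 8.00 to 9.89 on the rich and from 7.31 to 8.85 on the poor arrays. Bmp15 was the 1 gene of the 5 whose sides did not overlap, from 8.28 to 9.69 against 6.76 to 8.22. The 5 genes describe the rule and not a result.

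The width of the split was unequal between groups. In the 12 h controls the scores were 7.45 and 8.64 on the poor side and 9.02 and 9.96 on the rich side, a gap of 1.45 between side means, or 2.72-fold. With AMH at 12 h they were 8.10, 8.42, 8.57 and 9.00, a gap of 0.52 (1.44-fold). The 24 h controls scored 7.72, 8.04, 8.23 and 9.59, a gap of 1.03 (2.05-fold). With AMH at 24 h the values were 7.46, 8.01, 8.03 and 9.37, a gap of 0.96 (1.95-fold), and the 2 arrays on either side of the line were 0.016 apart. The rule therefore placed arrays that hardly differed on opposite sides, while 4 arrays lay more than 1 log2 unit from their group mean: control 12 h replicate 3 (1.19 above), control 12 h replicate 4 (1.31 below, a deviation of -1.31), control 24 h replicate 4 (1.20 above) and AMH 24 h replicate 1 (1.15 above).

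**Figure D1:**
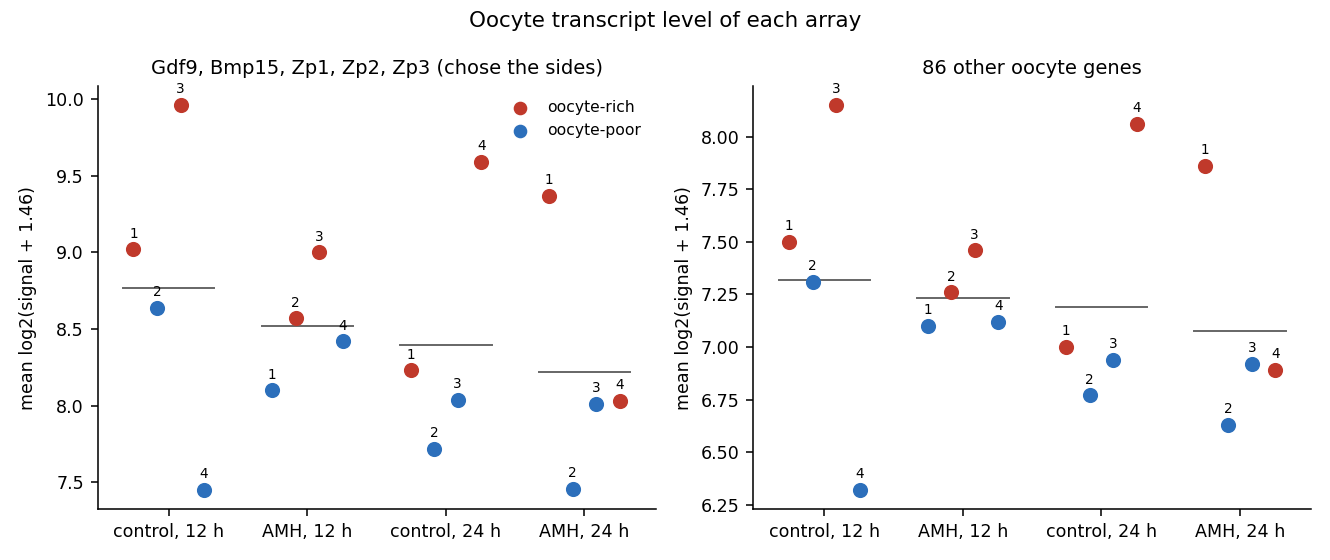
Mean log2(signal + 1.46) of the 5 scoring genes (left) and of 86 other oocyte genes (right) on each of the 16 arrays, by group; red points are oocyte-rich arrays, blue points oocyte-poor arrays, digits are replicate numbers and grey lines group means. Control 12 h replicate 3 and replicate 4 are the highest and the lowest array in both panels, at 9.96 and 7.45 on the left and 8.15 and 6.32 on the right.

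The sides also followed the pools in part. At 24 h pools 1 and 4 were rich in both arms and pools 2 and 3 poor in both, so at that time the side and the pool cannot be told apart. At 12 h pool 3 was rich and pool 4 poor in both arms, and pools 1 and 2 each gave 1 rich and 1 poor array. The measures of array quality overlapped between sides. The median signal ran from 27.8 to 40.1 on rich and 27.7 to 35.9 on poor arrays, and the log2 difference between the 3' and 5' probe sets of actin, a measure of RNA integrity and labelling, from -0.11 to 0.17 and -0.06 to 0.17.

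The first comparison asked which other genes differed between rich and poor arrays. Oocyte genes that had no part in the choice lay higher on the rich arrays, but no gene passed the test. In the limma fit with the group as a block, 0 of 12167 genes were called higher (0%) and 0 lower (0%) at an adjusted p under 0.05. At an unadjusted p under 0.05 there were 621 genes above and 146 below, 767 in all against the 608 that chance gives, and the lowest adjusted p was 0.143. Genes whose rich and poor arrays did not overlap in any of the 4 groups numbered 26 above (0.214%) and 2 below (0.0164%). Of the 26, 7 belonged to the oocyte lists, which is 8.14% of their 86 tested genes.

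These 7 were Zar1, an RNA-binding protein of the egg needed for the change from maternal to embryonic control, Tdrd1, a tudor protein of the piRNA pathway, Patl2, a repressor of stored messages, Nlrp9c, Tcl1b1, Nr6a1, the germ cell nuclear factor, and E330034G19Rik. Zar1 ran through 7.67, 8.32 and 9.38 (lowest, median, highest) on rich arrays and through 6.94, 7.65 and 8.01 on poor arrays. Its difference was 0.81 (SE 0.23, limma adjusted p = 0.364), with 1.40, 0.36, 0.77 and 0.71 in the 12 h controls, 12 h AMH, 24 h controls and 24 h AMH. The sides of Tdrd1 were at 5.72 to 7.19 and 4.54 to 6.04, a difference of 0.97 (SE 0.26, limma adjusted p = 0.364). The genes with the smallest p were outside the lists. Gm15496 lay at 4.61 to 5.62 on rich and 3.05 to 4.17 on poor arrays, with a difference of 1.40 (SE 0.22, limma adjusted p = 0.143). All 8 poor values were under the filter's level of 4.18, and the gene was tested because its mean over all arrays was above it. Vil1, the actin-bundling protein villin, lay at 5.58 to 6.23 and 4.47 to 5.34, a difference of 0.93 (SE 0.16, limma adjusted p = 0.162). The sides of both genes were clear of each other over all 16 arrays.

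The other 13 higher genes named by p had differences from 0.52 to 1.44 and a limma adjusted p of 0.364. Among them were Ipcef1 (1.44, the largest), Vrtn (1.19), Slc30a3, a zinc transporter (1.19), Dnah8, a dynein heavy chain (1.11), Oas1c, an oligoadenylate synthetase known from oocytes (0.99), Meis2, a homeobox factor (0.83), Kcnq1, a potassium channel subunit (0.82), Syce2, a protein of the synaptonemal complex (0.62), Olfm1 (0.54) and Tle6, a member of the subcortical maternal complex (0.52). Slc30a3, Dnah8 and Tmprss11a (difference 1.02) had means of 3.89, 4.02 and 3.85 on the poor arrays, under the filter's level. They too were tested because of their rich arrays. On the lower side the 12 genes had differences from -0.90 to -0.24. Osgin2 was at 7.74 to 8.80 on rich and 8.21 to 9.61 on poor arrays, a difference of -0.75 (SE 0.18, limma adjusted p = 0.364). Inhba, the activin βA subunit made by granulosa cells, had a difference of -0.51 (SE 0.17, limma adjusted p = 0.465), and the lysosomal enzyme Naglu one of -0.40. The 2 genes that lay below on the rich side of every group without overlap were Hps6, a subunit of a complex for lysosome-related organelles (-0.36), and Aup1, a lipid droplet protein (-0.19).

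Lists of genes with a known role, chosen with earlier results of these data known, give the pattern over many members. The 5 oocyte lists named 116 genes besides the 5 of the score. Of these 98 had a probe set and 86 were over the filter, 83 of them on the poor arrays' mean alone. Their median difference was 0.72 against 0.00 over all genes tested, and 79 of 86 were above 0 against 6048 of 12167. In all 4 groups at once 55 of the 86 were above 0, against 9.41% of all genes. The median was largest where the score's own gap was widest, 1.22 in the 12 h controls, and smallest where it was narrowest, 0.25 with AMH at 12 h. At 24 h it was 0.76 in controls and 0.66 with AMH.

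By role, the 7 tested genes of the subcortical maternal complex were all above 0, with a median of 0.74 and a range from 0.45 to 1.06. The 16 oocyte transcription factors and chromatin proteins were also all above 0 (median 0.66), as were 13 of 16 genes of germ-cell RNA binding and translation control (median 0.78) and 30 of 31 other oocyte-expressed genes (median 0.82). Genes of meiosis and the egg cell cycle stood closer to the background, with 14 of 17 above 0 and a median of 0.26. Many of that list's members also serve dividing somatic cells, and the part of this in the median was not tested.

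Lists of somatic cells and pathways had medians near or below 0. The medians were -0.18 for 25 granulosa cell markers (7 above 0), -0.27 for 14 surface epithelium genes (2 above 0), -0.20 for 14 glycolysis genes (2 above 0) and -0.19 for 10 genes of steroidogenesis and theca (1 above 0). They were -0.15 for 13 immune genes, -0.03 for 14 endothelial genes and -0.01 for 14 stroma and smooth muscle genes. For 18 genes that oocyte factors promote in cumulus cells the median was -0.11 (4 above 0), and for 7 that they hold down in mural cells -0.17. It was -0.08 for 20 cholesterol synthesis genes and 19 ribosomal protein genes, -0.07 for 30 genes of oxidative phosphorylation, -0.06 for 11 targets of SMAD1/5/9, 0.00 for 18 ovulatory genes, 0.01 for 28 mitosis genes and 0.07 for 23 DNA replication genes. The 1 measured red blood cell gene was at -0.26. Some of these medians average groups of opposite sign. In the 12 h controls, 12 h AMH, 24 h controls and 24 h AMH the median was -0.75, 0.63, 0.02 and 0.18 for mitosis and -0.56, 0.48, -0.09 and -0.12 for cholesterol synthesis. In the same order it was 0.67, -0.58, -0.03 and -0.56 for the immune list and 0.31, 0.39, -0.04 and -0.78 for the endothelial list.

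**Figure D2:**
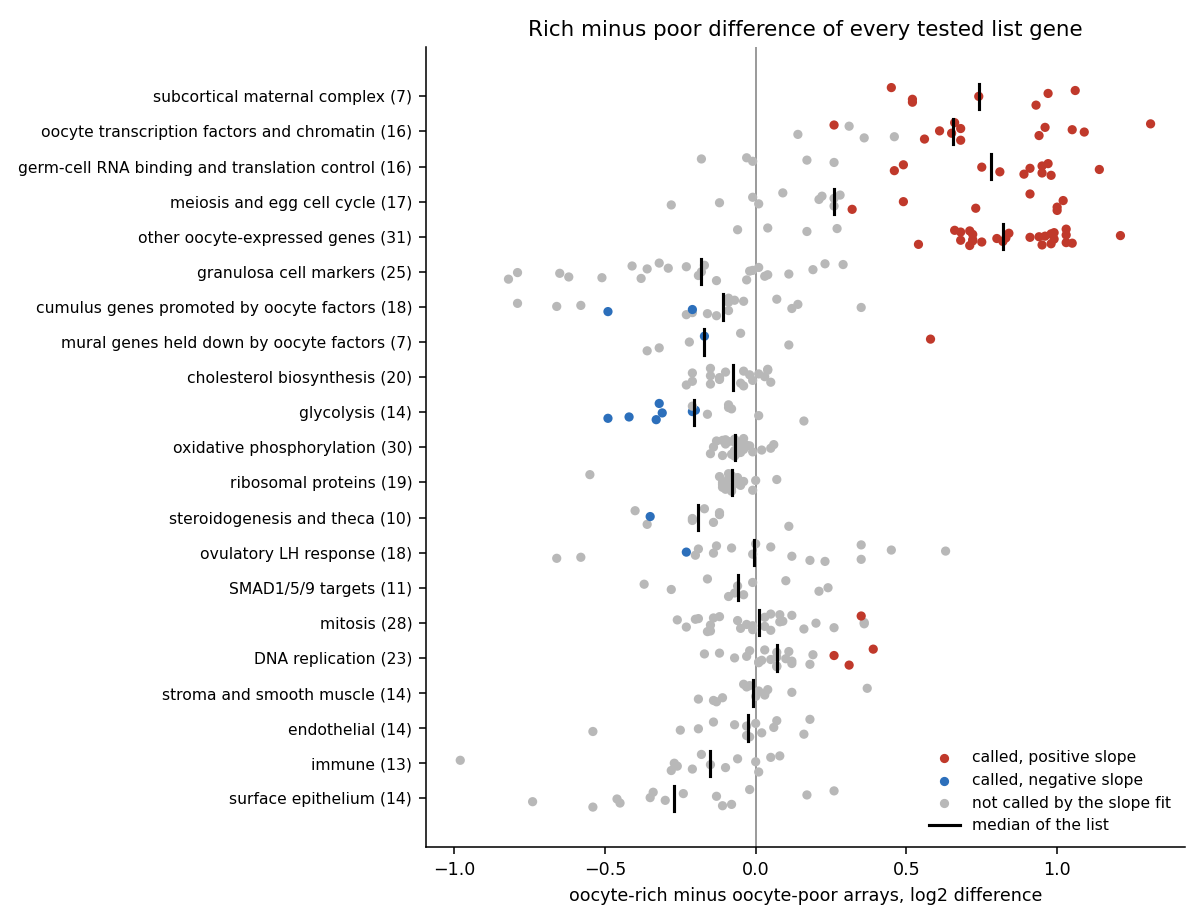
Log2 difference of rich minus poor arrays (horizontal axis) for every tested gene of 21 lists (rows, number of genes in brackets); black bars are list medians, and colours show the genes called by the slope on the oocyte score. The first 5 rows, the oocyte lists, have medians from 0.26 to 0.82, and the other medians lie between -0.27 and 0.07.

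Over all 4 groups, whose own levels differ, the ranges of the other cell types' markers overlapped between sides. The mean of the granulosa list ran from 7.97 to 9.71 on rich arrays and from 8.34 to 9.45 on poor arrays, the stroma list from 6.94 to 8.84 and 7.47 to 9.02, the endothelial list from 5.92 to 7.70 and 5.68 to 6.95, and the immune list from 5.09 to 7.26 and 5.22 to 6.95. The surface epithelium list ran from 6.84 to 8.11 and 7.04 to 8.56, and the list of steroidogenesis and theca from 9.01 to 9.81 and 8.88 to 10.14. With only 2 arrays on each side of a group, chance alone often keeps the sides apart. Some lists did not overlap within single groups, as given next, and in all other groups these lists overlapped. With AMH at 24 h the endothelial list was at 5.92 and 6.21 on rich and 6.84 on both poor arrays, and the stroma list at 8.59 and 8.84 against 9.00 and 9.02. In the 24 h controls the surface epithelium list was at 7.10 and 7.24 against 7.46 and 7.98, and in the 12 h controls the granulosa list at 7.97 and 8.48 against 8.61 and 8.76. The list of steroidogenesis and theca was lower on the rich arrays of both 24 h groups, at 9.46 and 9.81 against 9.83 and 10.14 in controls and 9.32 and 9.81 against 10.03 and 10.07 with AMH. The signals carry no exact 0, so none of their markers was at 0. Their part in the rich-minus-poor differences was not tested.

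Because the split set near-equal arrays against each other, the score itself was also used. An alternative planned beside the split replaced the side by each array's deviation of the score from its group mean, which gives each gene a slope, the log2 change per log2 unit of the score. A slope of 1 means that a gene moved in step with the 5 scoring genes. In this fit 627 genes rose with the score (5.15%) and 236 fell (1.94%), 863 in all, with a lowest adjusted p of 1.09e-07. Without the 4 arrays over 1 log2 unit from their group mean no gene was called (0 higher and 0 lower, lowest adjusted p 0.142), while 770 of the 863 kept their direction. That fit has 12 arrays and a narrower range of the score. In it the median slope of the 86 oocyte genes was 0.46 (73 above 0) against 0.79 over all arrays, and that of the 7 genes of the subcortical maternal complex 0.63 against 0.60. The parts of the lower number and of the arrays themselves in the lost calls were not tested. With the shared pool as a fixed replicate block, which only pools whose 2 arrays differ in score can inform, 249 genes rose and 44 fell, and 260 of these were among the 863.

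Of the 86 oocyte genes 63 rose with the score (73.3%, against 5.15% of all genes) and none fell. Their median slope was 0.79. With the fixed pool block 50 of the 86 rose, against 249 of all 12167 genes. Leaving out any 1 array left between 59 and 64, against 393 to 645 of all genes. In the 8 control arrays alone 59 rose, in the 8 AMH arrays alone 2, at 12 h alone 52 and at 24 h alone 53. Of all 12167 genes 393, 3, 221 and 312 rose in these settings, in the same order. The median slopes of the 86 were 0.86, 0.62, 0.82 and 0.71. None of the 86 had a part in the choice of sides, but the lists were chosen with earlier results of these data known. The 23 that did not pass had slopes from -0.11 to 0.53. The 3 with a slope below 0 were Tdrd7 (-0.11), Uchl1 (-0.06) and Ccnb2 (-0.01), and they are named after their values were seen.

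All 7 tested genes of the subcortical maternal complex rose. Nlrp5, which encodes MATER and is needed for the embryo's first cleavages, stood at 10.30, 9.48, 8.99 and 7.85 in the 12 h controls (replicates 3, 1, 2 and 4) and at 9.45, 9.36, 8.92 and 8.88 with AMH at 12 h (replicates 2, 3, 4 and 1). At 24 h it was at 9.89, 8.71, 8.37 and 8.25 in controls (replicates 4, 1, 3 and 2) and at 9.61, 8.61, 8.35 and 7.87 with AMH (replicates 1, 3, 4 and 2). The rich arrays were above the poor ones in all groups but the last, where AMH replicate 4, counted as rich, was below replicate 3. Its slope was 0.92 (SE 0.06, limma adjusted p = 1.09e-07), and its difference between sides 0.93 (SE 0.24, limma adjusted p = 0.364). Padi6, a peptidylarginine deiminase of the egg's cytoplasmic lattices, had a slope of 0.97 (SE 0.06), Nlrp4f one of 1.08 (SE 0.08) and Ooep one of 0.57 (SE 0.07).

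Among oocyte transcription factors and chromatin proteins 12 of 16 rose. The steepest was Gtsf1, a zinc finger protein of the piRNA pathway, with a slope of 1.37 (SE 0.11, limma adjusted p = 5.54e-07). Sall4, a zinc finger factor of oocytes and stem cells, had a slope of 1.12, H1f8, the oocyte linker histone, 0.92, and Dppa3, which protects the maternal genome from demethylation, 0.70. Nobox ran through 6.24, 7.26 and 8.47 on rich arrays and 5.89, 6.59 and 7.39 on poor arrays, with a slope of 0.84 (SE 0.09). Figla was dimmer, at 3.66 to 5.79 and 3.88 to 4.62, with a slope of 0.63 (SE 0.13, limma adjusted p = 0.00638). The slope of Figla with the fixed pool block was 0.80 (limma adjusted p = 0.0838).

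Of the genes of germ-cell RNA binding and translation control 11 of 16 rose. Dazl, an RNA-binding protein of germ cells, was highest on control 12 h replicate 3 (7.72) and lowest on control 12 h replicate 4 (4.14), and its poor arrays otherwise lay between 5.47 and 6.33. Its slope was 1.11 (SE 0.12, limma adjusted p = 1.73e-05). Zar1 had a slope of 0.83 (SE 0.07), Cpeb1, which controls the tails of stored messages, 1.17 (SE 0.10), Pabpc1l, the embryonic poly(A)-binding protein, 0.97, and Tdrd1 0.95. Ddx4 was not over the filter. Genes of meiosis and the egg cell cycle rose in 7 of 17 cases. Mos, the kinase that holds the egg in metaphase, had a slope of 1.16, Btg4, which drives decay of maternal messages, 1.04, Aurkc, the germ-cell Aurora kinase, 0.94, and Pde3a, the oocyte phosphodiesterase that keeps cAMP low for maturation, 0.79. Aurkc did not pass with the fixed pool block (limma adjusted p = 0.056).

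Of the other oocyte-expressed genes 27 of 31 rose, among them Nlrp14 (slope 0.84, SE 0.05), E330034G19Rik (0.97), Nlrp4b (1.13) and Oog4 (1.23). The oocyte's side of its contacts with granulosa cells was in this set. Gja4, the connexin of the oocyte's gap junctions, had a slope of 0.75 (SE 0.10, limma adjusted p = 6.43e-05). The rich-minus-poor difference of Gja4 was -0.06 with AMH at 12 h and above 0 in the other groups. Kit, the receptor for the granulosa cells' KIT ligand, ran through 5.45, 6.14 and 7.24 on rich and 4.81, 5.30 and 6.44 on poor arrays, with a slope of 0.76 (SE 0.16, limma adjusted p = 0.00584). Without control 12 h replicate 3 its limma adjusted p was 0.0585, and with the fixed pool block 0.115. The rich-minus-poor difference of Kit was -0.32 with AMH at 24 h and above 0 in the other groups. Kitl, the ligand, had a slope of 0.23 (SE 0.07, limma adjusted p = 0.0501, and 0.0441 with the pool as a random block).

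**Figure D3:**
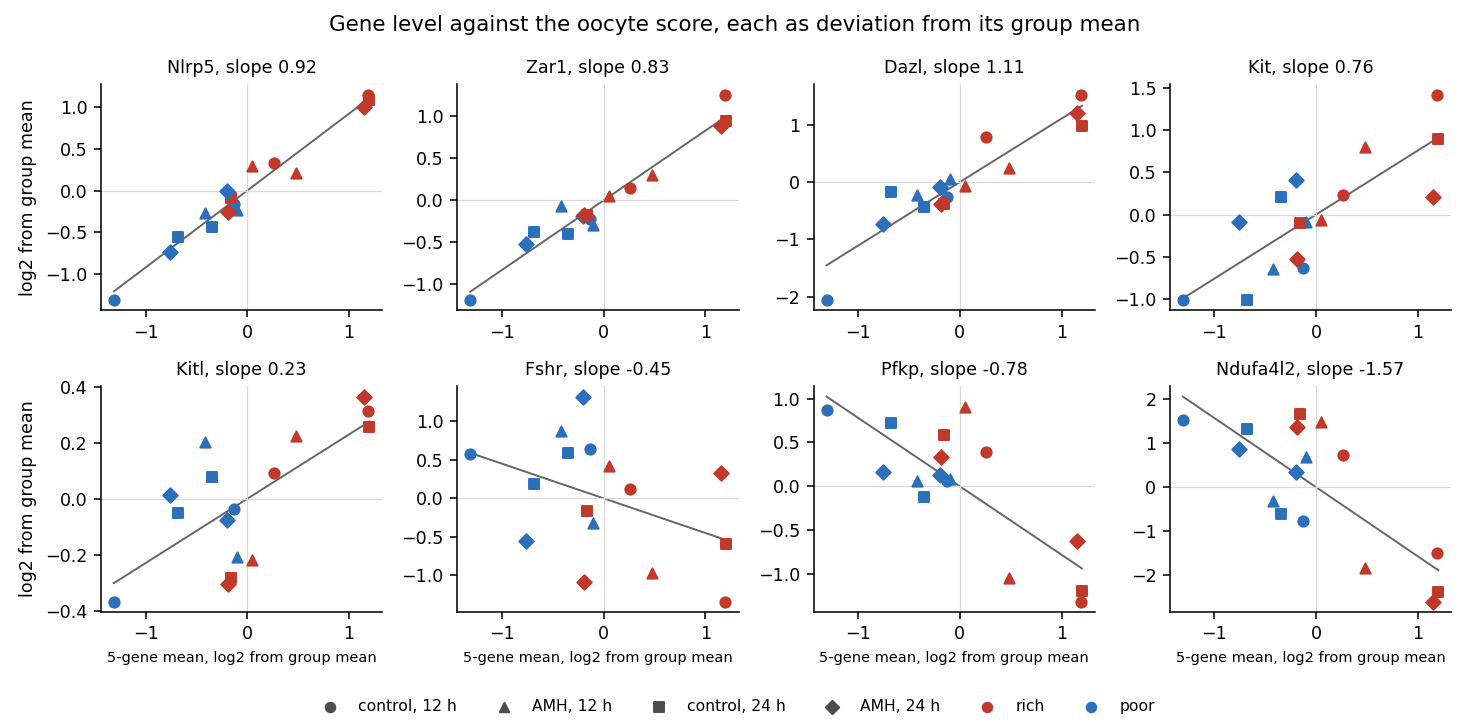
Deviation of 8 genes from their group mean (vertical axis, log2) against the deviation of the oocyte score (horizontal axis, log2) on the 16 arrays; colours mark the side, shapes the group, and grey lines the fitted slope. Nlrp5, Zar1 and Dazl follow the score closely (slopes 0.92, 0.83 and 1.11), while Pfkp and Ndufa4l2 have negative slopes (-0.78 and -1.57) set mainly by a few high-score arrays.

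The 16 steepest rising genes whose rich mean was above the poor mean in all 4 groups had slopes from 1.23 to 1.55. Myom2, a myomesin known from the sarcomere, was the steepest at 1.55 (SE 0.17, limma adjusted p = 1.51e-05). It was at 5.58 to 7.92 on rich arrays and 3.46 to 6.70 on poor arrays. Klf17, a Krüppel-like factor of oocytes and germ cells, had a slope of 1.34 (SE 0.11), and Umodl1 one of 1.25 (SE 0.08, limma adjusted p = 1.09e-07). Families with several members on the array were in this set: Pramel27 and Pramel29 (both 1.29), the F-box genes Fbxw16 (1.26) and Fbxw21 (1.24), Nlrp4e (1.29), Oosp2 (1.23) and Oog4 (1.23). These families have near-identical copies, so the member that gave the signal is uncertain. Ipcef1 (1.27), Myh2 (1.28), Vmn1r148 (1.30), Lrrc36 (1.29) and 1700030C10Rik (1.35) complete it, and the last 3 of these had poor means under the filter's level. With the fixed pool block Vmn1r148 (limma adjusted p = 0.0711) and 1700030C10Rik (0.11) did not pass.

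Of the lists outside the oocyte, glycolysis held the most genes that fell. Of 14 glycolysis genes 7 fell with the score (against 1.94% of all genes), none rose, and all 14 slopes were below 0 with a median of -0.31. The 7 were Pfkp and Pfkl, subunits of phosphofructokinase, Hk2, a hexokinase, Aldoc, an aldolase, Tpi1, Pgk1 and Pdk1, a kinase that inhibits pyruvate dehydrogenase. Pfkp stood at 7.43 on control 24 h replicate 4, 7.58 on control 12 h replicate 3, 7.79 on AMH 12 h replicate 3 and 8.21 on AMH 24 h replicate 1, all rich arrays, and between 8.50 and 9.76 on the other 12. The other 4 rich arrays were at 9.17 to 9.74, within the range of the poor ones. Its slope was -0.78 (SE 0.15, limma adjusted p = 0.00337), and its difference between sides -0.49 (SE 0.32, limma adjusted p = 0.993). Hk2 ran through 8.85, 9.46 and 10.04 on rich and 9.59, 9.75 and 10.08 on poor arrays, with a slope of -0.40 (SE 0.08, limma adjusted p = 0.00337). Aldoc had a slope of -0.87 (SE 0.20) and Tpi1 one of -0.36 (SE 0.08).

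The number of glycolysis calls changed with the block and with single arrays, while the median slope moved less. With the fixed pool block 0 of the 14 fell at a median of -0.31, where 44 of all genes fell. With the random block 7 fell at -0.33, where 250 of all genes fell. Without control 12 h replicate 3 the count was 2 (median -0.31, 82 of all genes). Without control 24 h replicate 4 it was 3 (median -0.27, 94 of all genes). Without AMH 12 h replicate 2 it rose to 10 (median -0.31, 307 of all genes). At 12 h alone 0 fell (median -0.27, 18 of all genes) and at 24 h alone 3 (median -0.40, 111 of all genes). The part of the changing number of all calls in the glycolysis counts was not tested. The list of genes promoted in cumulus cells shares Pfkp, Tpi1 and other enzymes with it, and Pfkp and Tpi1 were the 2 of its 18 genes that fell.

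The 12 steepest falling genes whose rich mean was below the poor mean in all 4 groups had slopes from -1.89 to -1.09. Pdcd1, the immune checkpoint receptor PD-1, was at 3.66, 1.89, 3.56 and 2.63 on control 12 h replicate 3, AMH 12 h replicate 3, control 24 h replicate 4 and AMH 24 h replicate 1, and between 5.02 and 7.40 on all other arrays. Its slope was -1.89 (SE 0.31, limma adjusted p = 0.000761). Ndufa4l2, a mitochondrial protein known to be induced by low oxygen, was at 5.71, 5.32, 5.56 and 5.11 on the same 4 arrays and between 6.45 and 9.61 on the others. Its slope was -1.57 (SE 0.33, limma adjusted p = 0.006). These 4 are the highest-scoring arrays of their groups, and the other 4 rich arrays lay within the range of the poor ones or above it. Mgarp, a mitochondrial protein of steroid-producing tissues, had a slope of -1.09 (SE 0.20, limma adjusted p = 0.00185), H2-Q10, a class I histocompatibility gene, -1.36, Hephl1, a copper ferroxidase, -1.83, and Sgpp2, a sphingosine phosphate phosphatase, -1.11.

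The others of the 12 were Slc36a2 (-1.34), Gsg1l (-1.26), Asgr1, a subunit of the asialoglycoprotein receptor (-1.22), Plin5, a lipid droplet protein (-1.13), Lin7b (-1.13) and Camp, the cathelicidin peptide (-1.12). For these 6 and for Ndufa4l2 the adjusted p rose over the threshold when some single arrays were left out, control 24 h replicate 4 or control 12 h replicate 3 among them. Of the 12, 10 did not pass with the fixed pool block, Hephl1 and Mgarp being the exceptions. The slopes of all 10 stayed below 0 there, from -1.77 (H2-Q10) to -0.76 (Lin7b). Slc36a2 had a mean of 3.93 on the rich arrays, under the filter's level of 4.18, and of 4.75 on the poor arrays. It was tested because of its poor arrays. Several of the 12 were under that level on high-score arrays. On control 12 h replicate 3 Slc36a2 was at 1.53, Hephl1 at 1.57, Gsg1l at 2.08 and Plin5 at 2.64.

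Granulosa cells make up most of a follicle's cells. None of 25 granulosa markers passed and their median slope was 0.00. That median was -0.23 at 12 h alone (4 of 25 above 0, 1 called lower), 0.19 at 24 h alone (20 of 25 above 0, none called), -0.17 without AMH 24 h replicate 1 and -0.69 without the 4 far arrays (4 of 25 above 0, none called). Fshr, the FSH receptor, ran through 2.56, 5.10 and 7.13 on rich and 3.90, 5.67 and 8.12 on poor arrays, with a slope of -0.45 (SE 0.25, limma adjusted p = 0.341). Inha, the inhibin α subunit, had a slope of -0.32 (limma adjusted p = 0.143, and 0.0429 without AMH 24 h replicate 1). Foxl2, a transcription factor of granulosa identity, was at 9.05 to 10.55 and 9.07 to 10.35, with a slope of 0.06 (SE 0.07, limma adjusted p = 0.707). Amh, the hormone's own transcript, had a slope of 0.12 (SE 0.24), Fst, the activin antagonist follistatin, -0.27 (SE 0.29), and Npr2, the receptor through which granulosa cells hold meiosis arrested, -0.10 (SE 0.16). None of these 3 passed. With the pool as a random block 2 granulosa markers rose, with the fixed block 1.

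In the remaining lists few genes passed. Over all genes tested 5.15% rose and 1.94% fell. The share that rose was 13% for DNA replication and 3.57% for mitosis, the latter under that of all genes. Of 23 DNA replication genes 3 rose: Uhrf1, which recruits the maintenance DNA methyltransferase (0.62), Cdt1, a licensing factor (0.52), and Mcm4, a helicase subunit (0.40, limma adjusted p = 0.147 without control 24 h replicate 4). Of 28 mitosis genes Nuf2, a kinetochore protein, rose (0.51, limma adjusted p = 0.0404, and 0.253 without control 24 h replicate 4). At 24 h alone all 28 mitosis slopes were above 0 and 5 passed (median 0.50), where 312 of all 12167 genes rose. At 12 h alone 4 were above 0 and none passed (median -0.25), where 221 of all genes rose. The difference between times was not tested for the list. Among 7 genes held down in mural cells Plat, the tissue plasminogen activator, which oocytes also store as a message, rose with a slope of 0.54 (SE 0.06, limma adjusted p = 7.78e-06), and Cdkn1b, a cell cycle inhibitor, fell (-0.34). Scarb1, the lipoprotein receptor that supplies cholesterol, fell among 10 genes of steroidogenesis and theca (-0.49), and Runx1 among 18 ovulatory genes (-0.48). With 1 array left out the limma adjusted p reached 0.111 for Cdkn1b (without AMH 24 h replicate 1 or control 24 h replicate 4) and 0.0822 for Scarb1 (without control 12 h replicate 3). With the fixed pool block Mcm4 (limma adjusted p = 0.27), Nuf2 (0.0844), Cdkn1b (0.255) and Runx1 (0.0851) did not pass. The slope of Cyp11a1, which starts steroid synthesis, was -0.49 (SE 0.25, limma adjusted p = 0.273), and that of Cyp17a1, the theca cells' androgen enzyme, 0.21 (SE 0.22, limma adjusted p = 0.651). All 20 cholesterol synthesis slopes were below 0 (median -0.21) and none passed. Without AMH 12 h replicate 1, 8 of them did, where 277 of all genes fell. No gene passed in the lists of oxidative phosphorylation (30), ribosomal proteins (19), SMAD1/5/9 targets (11), stroma (14), endothelium (14), immune cells (13), surface epithelium (14) and red blood cells (1). On the 24 h arrays alone 2 immune genes and 1 surface epithelium gene fell, where 111 of all genes fell. Of the 10 genes of steroidogenesis and theca 3 fell at 24 h alone (median -0.38) and 0 at 12 h alone (median -0.01). The medians of the immune and endothelial lists were 0.34 and 0.38 at 12 h alone and -0.39 and -0.25 at 24 h alone.

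The last comparisons asked whether the relation to the oocyte level differed between times or arms. For each of them chance alone gives 608 genes at an unadjusted p under 0.05. For the difference between sides at 24 h minus that at 12 h, 0 genes were higher (0%) and 0 lower (0%) by limma, with 191 at an unadjusted p under 0.05. The smallest p belonged to Phgdh, the first enzyme of serine synthesis. Its rich-minus-poor difference was 0.41 and 0.31 in the 12 h controls and 12 h AMH arrays and -0.53 and -0.61 at 24 h, an interaction of -0.92 (SE 0.21, limma adjusted p = 1). Tfdp2, Smoc2, Stard9 and D930016D06Rik followed. For AMH minus control 0 genes were higher (0%) and 0 lower (0%), with 294 at an unadjusted p under 0.05. Ccdc3 came first, at 0.99 and 0.93 in the controls of 12 and 24 h and -0.49 and -0.02 with AMH, an interaction of -1.22 (SE 0.29, limma adjusted p = 0.999), before H2ac19, Rpl39, Zfp13 and Tgfbr3. The slopes did not differ past the threshold either, with 0 genes higher and 0 lower for time (824 at an unadjusted p under 0.05, lowest adjusted p 0.621) and for AMH (315, lowest adjusted p 1). The gap in the score itself was unequal between groups, so a difference between sides was not asked of equal contrasts.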

How the data were processed

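RNA was amplified from 5 ng, labelled with biotin and hybridised to Affymetrix mouse arrays, per the labels' protocols. The deposited values are linear intensities, 1 for each probe set, and the submitters' processing notes name MAS5 as the authors' tool. Each array had a trimmed mean of 150. They give no depth, so the number of arrays limits the precision. The table held 45101 probe sets, of which 64 were controls and not used, while 34945 had 1 gene symbol, 932 several and 9160 none in the annotation table. The offset of 1.46 is the 10th percentile of all values. Probe sets with a mean log2 at or over the 40th percentile (4.18, a signal of 16.6) were kept, with the highest-mean probe set for each gene, and the 5 scoring genes were left out.

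Models were fitted with limma 3.58.1 (lmFit, eBayes with a trend) in R 4.3.3, with Benjamini-Hochberg adjustment over all 12167 genes, checked on simulated data. The main fit was rich against poor with the group as a block, and the score's deviation was listed beforehand as an alternative. The fixed pool block sets the pair of arrays of 1 pool as a term. The labels state that the arms of a pair came from 1 pool. As a check, each array's log2 values were centred on its group, and the correlation within a pair was 0.30, 0.35, 0.56 and 0.21 at 12 h and -0.44, 0.33, 0.20 and -0.29 at 24 h. P-values treat arrays as independent samples, although 8 pools gave 16 arrays.

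The 5 genes, the lists and the fixed genes were chosen with earlier results of these data known. Named genes were the 16 higher and 12 lower genes with the largest change past the threshold and the same side in all 4 groups (filled by smallest p), up to 4 called members of each list, 18 fixed genes (Ddx4 and Slc38a3 were not over the filter) and the 5 smallest interaction p. The same rule was applied to the slopes after the data were seen. Genes named outside it (among them Pfkl, Pgk1, Pdk1, Patl2, Nlrp9c, Tcl1b1, Nr6a1 and Aup1) were chosen after their values were seen. Offsets, filters, scalings, probe set handling, blocks, array weights, subsets of arrays and each array left out were alternatives. Figures were drawn with matplotlib.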

Additional observations from a re-analysis of the deposited data

Results flagged for a closer look

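In each group of 4 arrays the mean of every list, the score and 4 technical measures were searched for a single array that stood far from the other 3, in 112 sets of 4 values. Chance alone would flag about 6, and 3 were found, all on oocyte-rich arrays. The oocyte lists among them were high on the highest-scoring array of their group, so their side follows closely from the rule. The list of germ-cell RNA binding and translation control was at 7.71 on control 24 h replicate 4, against 6.56 to 6.71 on the other 24 h controls. The list of oocyte transcription factors and chromatin was at 6.98 on AMH 12 h replicate 3, against 6.61 to 6.65 on the rest of its group. The immune list was at 5.09 on AMH 12 h replicate 2, against 6.56 to 6.74 on the other 3 arrays. The highest of these, 6.74, was on the other rich array, replicate 3.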

How the results depend on the processing

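Between sides no gene was called in any setting but 3: the score as a covariate (627 higher, 236 lower), no group block (1 higher, Gm15496) and array weights (1 higher, Gm15496). Leaving out each array gave 0 higher and 0 lower for the split and for both interactions. For the slopes, leaving out each array gave 393 to 645 higher and 82 to 307 lower. The lowest counts came without control 24 h replicate 4 (393 and 94) and without control 12 h replicate 3 (82 lower), while AMH 24 h replicate 1 and replicate 2 left 110 and 153 lower. The fixed replicate block gave 249 higher and 44 lower, the random one changed the counts little (649 and 250). The filter at the 60th percentile gave 334 higher among 9452 genes tested. The 12 h arrays gave 221 and 18, the 24 h arrays 312 and 111, the control arrays 393 and 75, the AMH arrays 3 and 1, and the arrays within 1 log2 unit of their group mean 0 and 0. Each of these uses fewer samples, and the share of each cause was not tested. Higher calls were 72.7% of all calls in the slope fit, 65.5% after median centring and 69.9% after quantile normalization. An offset of 16, no filter, both scalings, the mean of probe sets and array weights left both slope counts within 1.5 times.

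Of the 863 called slopes 770 kept their direction without the 4 far arrays, 862 with the mean of probe sets and all that were tested in each of the other settings. Every setting reuses arrays of the fit that chose the 863, so a kept direction is in part fixed in advance. Among the named genes, directions that reversed belonged to genes not called in that fit, such as Nobox and Gja4 between sides with the fixed replicate block (-0.22 and -0.05), which also turned Kitl (-0.15) and Cyp11a1 (0.44). Amh between sides was 0.12 with the covariate, 0.02 with the egg coat split (sides from Zp1, Zp2 and Zp3 alone, where AMH 24 h replicates 3 and 4 changed places), 0.40 at 24 h, 0.53 with AMH and 0.00 with array weights, and from -0.41 to 0.02 with 1 array left out (0.00 and 0.02 without control 12 h replicate 3 and 2). Foxl2 was -0.02 at 24 h and from -0.02 to 0.08 with 1 array left out, below 0 without AMH 12 h replicate 2 or 4 or AMH 24 h replicate 1. Npr2 was 0.05 at 24 h and 0.10 with AMH, and Cyp11a1 was 0.18 at 12 h. Cyp17a1 was -0.01 with an offset of 16, 0.00 after quantile normalization, -0.43 at 24 h, -0.07 in controls, and from -0.11 to 0.31 with 1 array left out, below 0 without AMH 12 h replicate 1 or 3 or AMH 24 h replicate 2. Among slopes, Amh was -0.56 at 12 h, -0.30 in controls, from -0.23 (without AMH 24 h replicate 1) to 0.38 with 1 array left out and -0.31 without the 4 far arrays, Foxl2 -0.03 at 12 h and -0.20 without those 4, and Kitl -0.08 without them. Fst was 0.34 with the fixed block, 0.54 at 24 h, 0.16 with AMH, and from -0.56 to 0.02 with 1 array left out, above 0 without control 12 h replicate 3 or 4. Npr2 was 0.03 with the fixed block, 0.23 at 24 h, 0.25 with AMH and from -0.28 to 0.10 (without control 12 h replicate 3) with 1 array left out. Cyp11a1 was 0.19 at 12 h and 0.23 without the 4 far arrays. The cause was not tested. Of the named called slopes 63 were no longer past the threshold without those 4 arrays, 60 in the AMH arrays alone and 23 with the fixed replicate block.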

Other observations

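Promoter windows were matched for 180 of the 236 genes that fell with the score and for 506 of the 627 that rose. CANNTG was in 58.1% of the 234 windows of falling genes and in 67.8% of the 649 windows of rising genes, and TAATTG or its reverse complement in 2.99% and 7.24%. CACGTG was in 8.55% and 7.86%. These shares are descriptions of the 250 bases before each start, with no test.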
